A study of Mus musculus with 8 samples.

Results

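The NF-κB pathway was examined in the liver of mice lacking RAP1, through 10 genes that encode its DNA-binding subunits (Rela, Relb, Nfkb1 and Nfkb2), the parts of the IκB kinase (Chuk, Ikbkb and Ikbkg) and targets of the pathway (Nfkbia, Tnfaip3 and Icam1). Every non-control probe was taken whose accession belongs to one of these genes, which gave 13 of the 55681 probes on the array and 10 of 19752 named genes. Liver RNA of 8 mice aged 10 weeks was hybridized in a single colour to Agilent arrays, 1 mouse per array. The groups were 4 Rap1 -/- mice and 4 wild-type mice, all on a C57BL6/129SV (90%:10%) background and labelled as replicates 1 to 4 of each genotype. Per the study's methods, the null allele came from a floxed Rap1 allele deleted by cre under the adenovirus EIIa promoter, which acts in the germline and early embryo, and the cre allele was later bred out, so the knockout is constitutive and covers all cell types of the liver. Sex and feeding state are not stated in the labels; per the study, the young mice whose expression it profiled were females, and livers of both fed and fasted animals were examined.

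NF-κB is a family of dimeric transcription factors that is held in the cytoplasm of resting cells by IκB proteins. Signals from receptors for TNF, IL-1 and bacterial products activate the IκB kinase, which marks IκB for degradation and frees RELA and NFKB1 dimers to enter the nucleus. A slower, non-canonical branch works through CHUK and releases RELB and NFKB2 dimers. Among the genes switched on are Nfkbia and Tnfaip3, whose products turn the pathway off again. In the liver the pathway is known for protecting hepatocytes from TNF and for inflammatory signalling in Kupffer cells. RAP1 is a telomeric protein that also binds along chromosome arms, and human RAP1 has been described as a partner of the IκB kinase in the cytoplasm. Much of the pathway runs through protein modification and movement, which arrays of transcripts do not read.

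Promoter windows of these genes, from 250 bases before to 50 bases after each start, were read from RefSeq (GRCm38.p6) for 7 of the 10 genes. No entry was given for Relb, Nfkb1 and Ikbkb. The windows were searched on both strands for the κB consensus, the site that NF-κB dimers bind, and for TTAGGG, the telomere repeat that lies where RAP1 resides. The consensus was taken as GGGRNNYYCC, where R is A or G, Y is C or T and N is any base, so sites that depart from it are missed. A κB match lay in windows of 3 of the 7 genes, Nfkb2, Nfkbia and Tnfaip3, against 8.46% of all 32851 windows and 9.55% of genes. The window of Icam1, also a target, held 0. The 7 genes have 13 windows, and the 32851 windows belong to 27025 genes, so the shares of genes are not strictly alike. TTAGGG lay in a window of 1 of the 7, Rela, against 10.6% of all windows and 12.03% of genes, and the repeat in tandem lay in 0 of them and in 4 windows of all genes. The stretches below carry these matches, in capitals and 5′ to 3′ on the gene's strand, and are shown because the 3 genes with κB matches are ones the pathway feeds back on. They end at the last base before a start, except that of Rela, which ends 66 bases before it. Nfkb2 also held matches before other starts, not shown. A match is a description of the letters and says nothing of binding in these livers.
Nfkb2, chr19:46304678-46304736 (plus strand), with 2 overlapping matches in its first run of capitals and another in its second: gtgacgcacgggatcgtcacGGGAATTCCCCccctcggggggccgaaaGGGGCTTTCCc
Nfkbia, chr12:55492648-55492696 (minus strand): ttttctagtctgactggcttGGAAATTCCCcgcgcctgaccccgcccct
Tnfaip3, chr10:19015411-19015555 (minus strand): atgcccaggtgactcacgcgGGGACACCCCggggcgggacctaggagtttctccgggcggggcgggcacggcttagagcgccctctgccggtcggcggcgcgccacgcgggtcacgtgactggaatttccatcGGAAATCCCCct
Rela, chr19:5637430-5637475 (plus strand), where the capitals are TTAGGG read on the other strand: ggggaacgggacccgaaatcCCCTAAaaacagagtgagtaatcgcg

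The targeted gene, Terf2ip, which encodes RAP1, was examined first. Its probe A_52_P381806 was called well above background by the scanner software in 4 of 4 wild-type mice but in 0 of 4 knockout mice. It was at least 19.0-fold lower in knockout liver, where the bound sets each dim spot to the lowest signal called well above background on its array. The limma fit used the dim values as measured, with a log2 difference of -6.42 (adjusted p = 7.09e-06). A second Terf2ip probe, A_55_P2094079, was measured on all 8 arrays and was at 2.30-fold of wild type in knockout liver, with an adjusted p of 0.127 (limma). The share of probes called above background ran from 50.03% to 65.3%, and correlations between arrays over tested genes ran from 0.984 to 0.993. Both slides held replicates of both genotypes (1 and 2 on slide 1, 3 and 4 on slide 2), with wild-type RNA always in the first and second position, so the effects of genotype and of position cannot be told apart.

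All 13 probes were well above background on 8 of 8 arrays, so each of the 10 genes could be tested. Levels are given as log2 of the processed signal relative to the 75th percentile of the same array, so that 0 is the level of that percentile and 1 unit is a 2-fold step. They compare arrays for 1 probe and not probes with each other. The signal at the 75th percentile did not overlap between the genotypes, at 178.9 to 209.3 on wild-type and 219.8 to 226.9 on knockout arrays. Unscaled signals can therefore order the genotypes differently from these levels. A difference is the knockout mean less the wild-type mean, with limma's standard error (SE) and 95% confidence interval, fitted across all tested genes or, for a second probe of a gene, all tested probes, and adjusted p values are those of Benjamini and Hochberg over the same genes or probes. Where several probes read a gene, the one with the highest mean stands for it. For Terf2ip this rule takes A_55_P2094079, the probe that was higher in knockout liver. The targeted gene therefore enters the gene fit as raised.

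No difference between the genotypes was detected for any of the 10 genes. At an adjusted p under 0.05, 0 of 10 genes and 0 of 13 probes passed (limma), against 0.0142% of the 14066 tested genes and 0.00644% of the 31068 tested probes. At an unadjusted p under 0.05, again 0 of 10 genes and 0 of 13 probes passed, against 6.36% of genes and 6.12% of probes. The adjusted p values of the 10 genes lay between 0.840 and 1.00. Differences ran from -0.19 for Nfkbia to 0.13 for Ikbkg, with 4 genes above 0 and 6 below it and a median of -0.04, beside a median of 0.02 over all tested genes, of which 56.1% lay above 0. In 0 of the 10 genes did the arrays of the genotypes stand apart, against 4.31% of all tested genes. Exact two-sided permutation of the arrays, which has 70 partings and a smallest possible p of 0.0286, gave p values between 0.171 and 0.971 over the 13 probes. As folds of wild type, the 95% confidence intervals ran from 0.803 to 1.08 for Rela, the narrowest, and from 0.676 to 1.52 for Tnfaip3, the widest. RNA of whole liver was measured, so fewer cells of a type and less RNA per cell cannot be told apart.

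**Figure D1:**
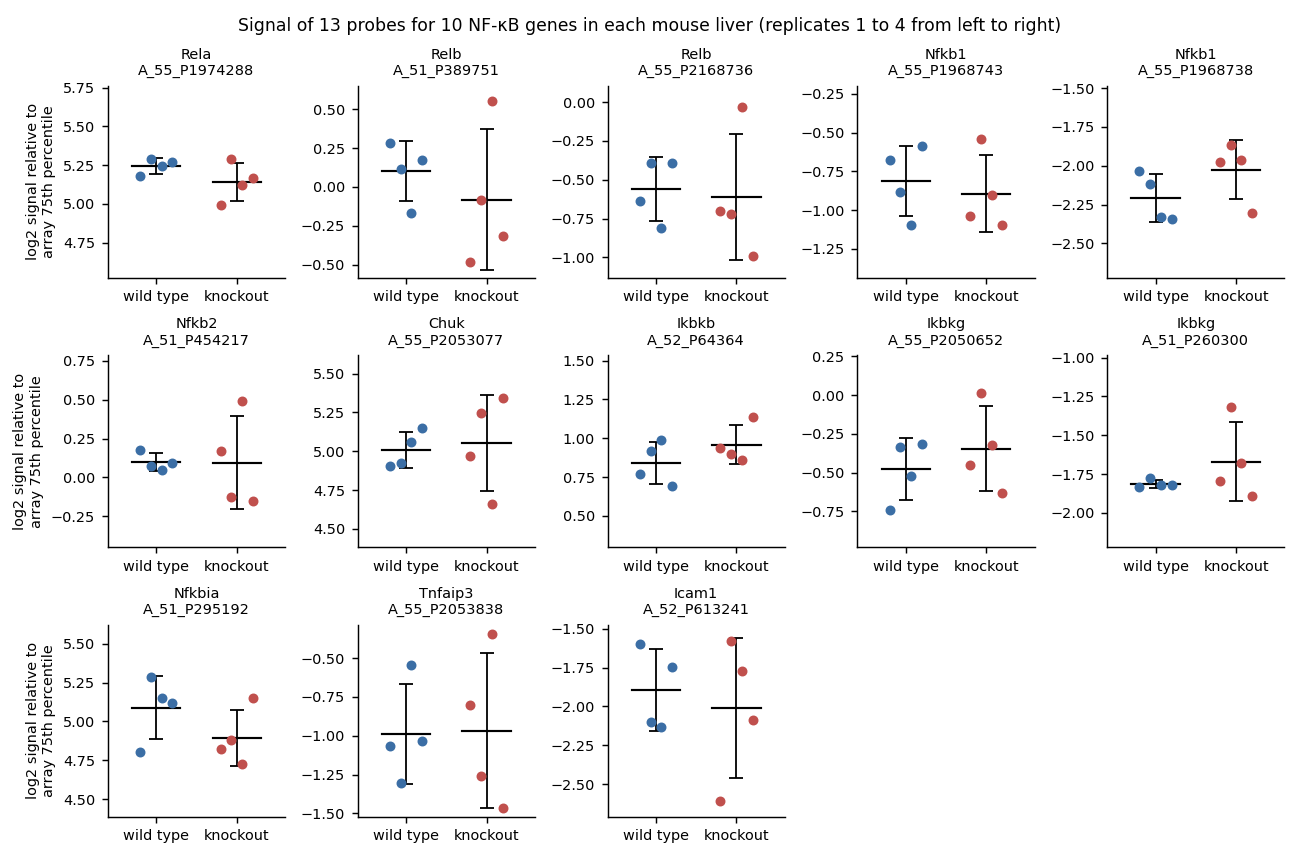
Log2 signal of the 13 probes relative to the 75th percentile of each array, by genotype (blue, wild type; red, Rap1 knockout), with 1 point per mouse and bars for the mean ± SD of 4 mice. All panels span the same number of log2 units, and in every panel the genotypes overlap.

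Rela, the main activating subunit of the canonical pathway, had the narrowest confidence interval of the 10 genes. Its probe A_55_P1974288 read 5.18, 5.29, 5.24 and 5.27 in wild-type replicates 1 to 4. In knockout replicates 1 to 4 it read 4.99, 5.29, 5.12 and 5.16. Of the knockout values, 3 of 4 lay below the whole wild-type range, and knockout replicate 2 lay at its top. Before scaling, the Rela signal ran from 6473 to 8066 in wild-type and from 7014 to 8691 in knockout liver, with both ends higher in knockout liver. The means of the scaled levels were 5.24 ± 0.05 and 5.14 ± 0.12 (SD, n = 4), a difference of -0.10 (SE 0.09, interval -0.32 to 0.11, adjusted p = 0.881 in limma). The difference was -0.09 on slide 1 and -0.11 on slide 2.

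Nfkb1, whose p105 product is processed to the p50 partner of RELA, was read by 2 probes that differed in opposite directions. A_55_P1968743 read -0.68, -0.88, -1.09 and -0.59 in wild-type liver and -1.04, -0.54, -0.90 and -1.09 in knockout liver. The ranges of the genotypes nearly coincided, and the difference was -0.08 (SE 0.16, interval -0.44 to 0.28). The dimmer probe A_55_P1968738 read -2.03, -2.12, -2.33 and -2.34 in wild-type liver and -1.97, -1.86, -1.96 and -2.30 in knockout liver. Here 3 of 4 knockout mice lay above every wild-type mouse and knockout replicate 4 lay among them. The difference of 0.18 (SE 0.13, interval -0.12 to 0.48, adjusted p = 0.850 in limma over probes) did not pass. The probes carry the same transcript accession, and with their mean taken for the gene the difference was 0.05 in place of -0.08.

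Relb, the subunit that acts mainly in the non-canonical branch, had a larger SD in knockout than in wild-type mice. A_51_P389751 read 0.28, 0.12, -0.17 and 0.18 in wild-type liver and -0.49, -0.09, 0.55 and -0.31 in knockout liver. Knockout replicate 3 was the highest of all 8 arrays, and knockout replicates 1 and 4 were the lowest. The means were 0.10 ± 0.19 and -0.08 ± 0.45 (SD, n = 4), a difference of -0.18 (SE 0.22, interval -0.68 to 0.31, adjusted p = 0.905 in limma). Without knockout replicate 3 the difference was -0.40, with an unadjusted p of 0.0297 and an adjusted p of 0.857 (limma). Within slides it was -0.48 on slide 1 and 0.12 on slide 2, so that the sign differed between slides. The second Relb probe, A_55_P2168736, gave the same highest array, with -0.63, -0.39, -0.81 and -0.39 in wild-type liver and -0.70, -0.72, -0.03 and -0.99 in knockout liver. Its difference was -0.05 (SE 0.21, interval -0.52 to 0.42).

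Nfkb2, which encodes the p100 precursor and p52 subunit that pair with RELB, had wild-type values within a narrow band and scattered knockout values. Its probe A_51_P454217 read 0.18, 0.07, 0.05 and 0.10 in wild-type liver. It read 0.17, -0.12, 0.49 and -0.15 in knockout liver. Knockout replicate 3 was again the highest, and knockout replicates 2 and 4 were below every wild-type mouse. The means were the same to 2 decimals, 0.10 ± 0.06 and 0.10 ± 0.30 (SD, n = 4), and the difference had an interval from -0.34 to 0.33. Its sign turned with the scaling and with the mouse left out.

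In the main fit the kinase genes lay above their wild-type means in knockout liver, by less than the SD of either genotype. The exception was the second Ikbkg probe, whose difference of 0.14 exceeded its wild-type SD of 0.03 but not its knockout SD of 0.25. The differences of Chuk and Ikbkg changed sign under some alternatives, given below. Chuk, which encodes the IKKα subunit that also drives the non-canonical branch, read 4.91, 4.92, 5.06 and 5.15 in wild-type liver and 4.97, 5.25, 4.66 and 5.34 in knockout liver. Knockout replicates 2 and 4 were the highest of the 8 arrays and knockout replicate 3 the lowest. The difference was 0.04 (SE 0.16, interval -0.31 to 0.40, adjusted p = 0.984 in limma). It was -0.01 with quantile normalization or cyclic loess, and -0.02 and -0.05 without knockout replicates 2 and 4.

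Ikbkb, which encodes IKKβ, the main kinase of IκB in the canonical pathway, read 0.77, 0.92, 0.99 and 0.69 in wild-type liver. In knockout liver it read 0.94, 0.90, 0.86 and 1.14. Only knockout replicate 4 lay outside the wild-type range, above it. The difference was 0.12 (SE 0.11, interval -0.13 to 0.36, adjusted p = 0.881 in limma), and it was 0.08 on slide 1 and 0.16 on slide 2.

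Ikbkg, which encodes NEMO, the regulatory subunit that couples the kinase to ubiquitin chains, was read by 2 probes that name different transcript accessions. A_55_P2050652 read -0.74, -0.33, -0.52 and -0.31 in wild-type liver and -0.45, 0.02, -0.32 and -0.63 in knockout liver. A_51_P260300 read -1.84, -1.78, -1.82 and -1.82 in wild-type liver and -1.79, -1.32, -1.68 and -1.89 in knockout liver. Knockout replicate 2 was the highest array for both. The differences were 0.13 (SE 0.16, interval -0.23 to 0.49) and 0.14 (SE 0.13, interval -0.16 to 0.45). Without knockout replicate 2 they were 0.0076 and 0.026, without knockout replicate 4 they were 0.22 and 0.22, and without wild-type replicate 1 the first was 0.041. With the first probe the difference was 0.32 on slide 1 and -0.06 on slide 2. The wild-type SD of the second probe, 0.03, was the smallest of any probe and genotype here, and its knockout SD was 0.25.

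**Figure D2:**
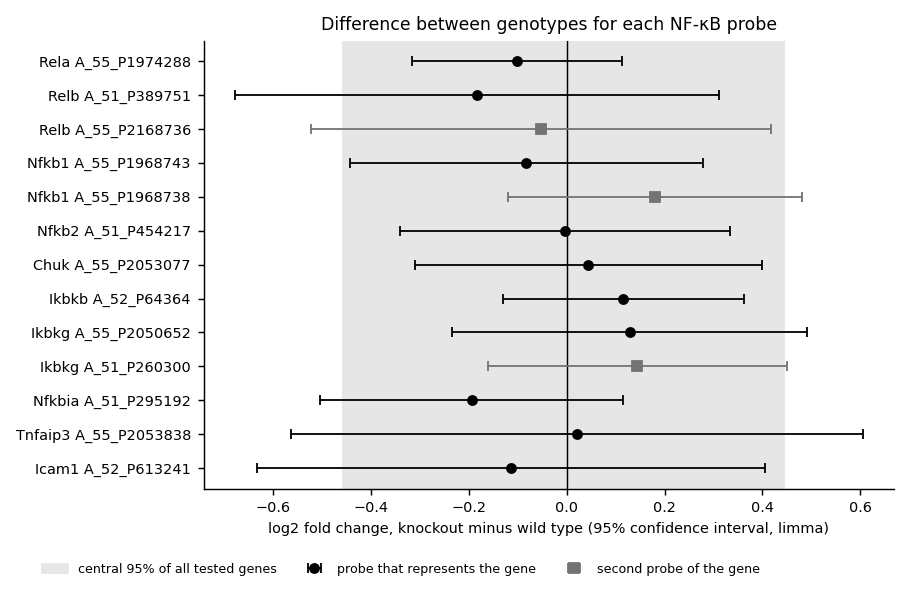
Log2 fold change, knockout minus wild type, with its 95% confidence interval (limma, 4 mice per genotype) for the 13 probes; black circles are the probes that stand for a gene and grey squares second probes. The grey band holds the central 95% of differences over all 14066 tested genes, from -0.46 to 0.44, and every interval includes 0.

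The feedback targets were read next, since their transcripts report on the pathway's output. Nfkbia, which encodes IκBα, the inhibitor that NF-κB itself induces, had the lowest difference of the 10 genes. Its probe A_51_P295192 read 4.81, 5.28, 5.15 and 5.12 in wild-type liver. It read 4.83, 4.88, 4.73 and 5.15 in knockout liver. Knockout replicates 1, 2 and 3 lay at the low end with wild-type replicate 1, and knockout replicate 4 lay with the other wild-type mice. Before scaling, the Nfkbia signal ran from 5004 to 7546 in wild-type and from 5814 to 8054 in knockout liver, with both ends higher in knockout liver. The means of the scaled levels were 5.09 ± 0.20 and 4.89 ± 0.18 (SD, n = 4), a difference of -0.19 (SE 0.14, interval -0.50 to 0.12, adjusted p = 0.840 in limma). It was -0.19 on slide 1 and -0.20 on slide 2, and stayed below 0 whichever mouse was left out, between -0.29 and -0.13. The smallest unadjusted p among these, 0.0535, was that without wild-type replicate 1.

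Tnfaip3, which encodes A20, a ubiquitin-editing brake on the kinase, had the widest interval. A_55_P2053838 read -1.07, -1.31, -0.54 and -1.03 in wild-type liver and -0.80, -1.26, -0.34 and -1.47 in knockout liver. The knockout range enclosed the wild-type range, with knockout replicate 3 highest and knockout replicate 4 lowest. The difference was 0.02 (SE 0.26, interval -0.56 to 0.61), and its sign turned without wild-type replicate 1 (-0.01) or 2 (-0.09) and without knockout replicate 1 (-0.03) or 3 (-0.19).

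Icam1, the adhesion molecule on endothelium that leukocytes bind and a classic target of the pathway, read -1.60, -2.10, -2.13 and -1.75 in wild-type liver. It read -2.61, -1.58, -1.77 and -2.08 in knockout liver. Knockout replicate 1 lay well below the other 7 arrays, which overlapped. The difference was -0.11 (SE 0.23, interval -0.63 to 0.41, adjusted p = 0.953 in limma), and 0.08 without knockout replicate 1.

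Seen by mouse, the 10 genes did not move as a block. Knockout replicate 2 was the highest array for 4 genes, Rela, Nfkb1, Ikbkg and Icam1. Knockout replicate 3 was the highest for Relb, Nfkb2 and Tnfaip3 and the lowest for Chuk and Nfkbia. Knockout replicate 4 was the highest for Chuk and Ikbkb and the lowest for Nfkb2 and Tnfaip3. Knockout replicate 1 was the lowest for 3 genes, Rela, Relb and Icam1. Over all tested genes, knockout replicates 2, 3 and 4 were the highest array for 18.9%, 15.8% and 12.5%, and knockout replicates 1, 3 and 4 the lowest for 13.5%, 13.1% and 8.50%. The lone gene with its highest value in a wild-type mouse was Nfkbia, in replicate 2. The SD among knockout mice exceeded that among wild-type mice in 8 of 10 genes and 11 of 13 probes, and in 53.4% of all tested genes. The median SD of the 10 genes was 0.20 in wild-type and 0.29 in knockout liver, beside 0.19 and 0.21 over all tested genes. No test was made of these orders and spreads, and the probes of 1 gene share their mice.

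**Figure D3:**
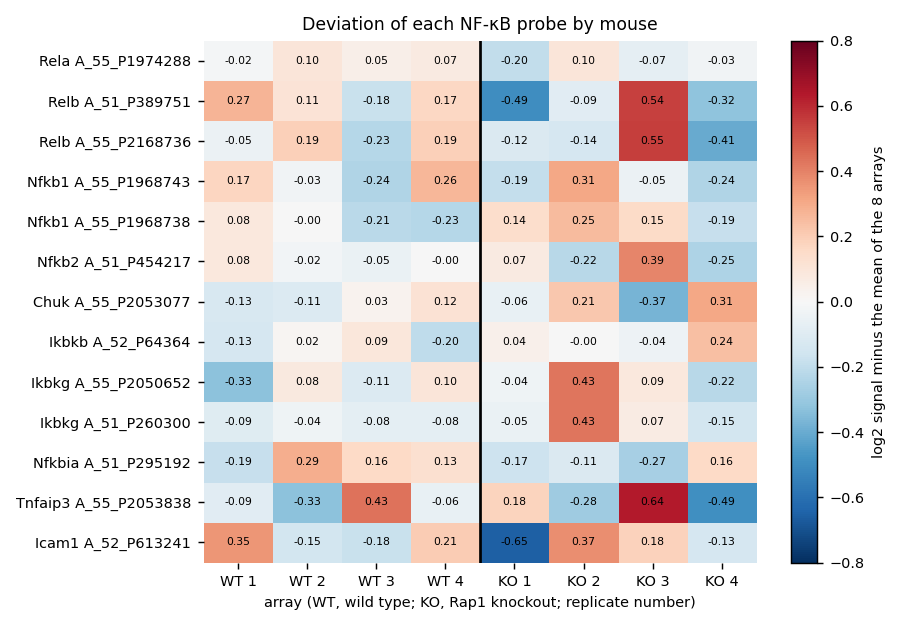
Deviation of each probe on each array from the probe's mean over the 8 arrays, in log2 units (red, above; blue, below). Knockout replicate 3 stands high for Relb and Tnfaip3, knockout replicate 2 for Ikbkg and wild-type replicate 3 for Tnfaip3, and no row separates the genotypes.

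The rest of the pathway was read through 4 lists of 114 genes in all, of which 94 were tested. Of these, 0 passed at an adjusted p under 0.05 (limma), and 4 (4.26%) reached an unadjusted p under 0.05, with 3 above 0 and 1 below it, against 6.36% of all tested genes. In 3 genes (3.19%) the arrays of the genotypes stood apart, against 4.31% of all tested genes. The other 20 genes were not tested, 3 of them (Il12b, Bcl2a1a and Bcl2a1b) because no probe was matched to them here and the rest because too few arrays were well above background. Among the latter were Tnf and Il6, whose best probe was well above background on 2 arrays each, Il1a and Tlr3 (3 arrays each), and Cxcl2, Csf2, Ptgs2, Sele and the remaining subunit gene Rel, on 0 arrays.

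Of ligands and receptors upstream of NF-κB, 18 of 23 were tested, 2 had an unadjusted p under 0.05 and the median difference was -0.02. Il18r1, a chain of the receptor for interleukin 18, was at -3.33 ± 0.60 in wild-type and -4.30 ± 0.58 in knockout liver (SD, n = 4), a difference of -0.97 (SE 0.35, unadjusted p = 0.0230 and adjusted p = 0.770 in limma). It was well above background on 3 wild-type arrays and 1 knockout array, and its difference was -0.14 with normexp and quantile normalization. Ly96, the MD-2 partner of the endotoxin receptor TLR4, was at 0.71 ± 0.16 and 0.96 ± 0.05, with every knockout mouse above every wild-type mouse and a difference of 0.25 (SE 0.11, unadjusted p = 0.0398 and adjusted p = 0.770 in limma). Tnfrsf11a, the receptor for RANK ligand, differed by -0.21 and Il18 by 0.21, neither at that threshold.

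All 32 adaptors and kinases upstream of the IκB kinase were tested, 1 had an unadjusted p under 0.05 and the median difference was 0.01. Ikbke, which encodes the IκB-kinase-related kinase IKKε, was at -1.06 ± 0.12 in wild-type and -0.69 ± 0.24 in knockout liver (SD, n = 4), a difference of 0.37 (SE 0.14, unadjusted p = 0.0235 and adjusted p = 0.770 in limma). Irak2, a kinase of the IL-1 and Toll-like receptors, was at 4.36 ± 0.16 and 4.15 ± 0.04, with every knockout mouse below every wild-type mouse. Before scaling, the Irak2 signals overlapped, at 3854 to 4359 in wild-type and 3788 to 4048 in knockout liver. These values are of the brighter of 2 tested Irak2 probes. Its difference of -0.21 had an unadjusted p of 0.0713 (limma), and of 0.0433 with quantile normalization and 0.0442 with slide as a block. That p was 0.0185 in the authors' table, 0.0190 with normexp and quantile normalization, 0.0376 with cyclic loess and 0.0481 with trended and robust variance. It was 0.0810 with median scaling and at most 0.477 under any alternative, and the adjusted p was never below 0.763 (limma). Traf2, an adaptor of TNF receptors, differed by -0.23 and Irak1, a kinase of the IL-1 receptor complex, by 0.20, neither at that threshold.

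Of the other subunit, the remaining IκB proteins and the brakes on the pathway, 17 of 18 were tested and 0 had an unadjusted p under 0.05, with a median difference of -0.05. Commd1, which promotes the removal of RELA from chromatin, was at 3.62 ± 0.04 in wild-type and 3.81 ± 0.10 in knockout liver (SD, n = 4). The genotypes stood apart for it, with a difference of 0.19 (SE 0.09, unadjusted p = 0.0628 and adjusted p = 0.783 in limma). The deubiquitinase gene Cyld differed by -0.24, Nfkbil1 by -0.20 and Rnf11, a partner of A20, by 0.20.

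Of the other target genes, 27 of 41 were tested, 1 had an unadjusted p under 0.05 and the median difference was -0.06, with 9 above 0 and 18 below it. Myc, the growth-promoting transcription factor, was at -1.76 ± 0.38 in wild-type and -1.20 ± 0.41 in knockout liver (SD, n = 4), a difference of 0.56 (SE 0.24, unadjusted p = 0.0464 and adjusted p = 0.779 in limma). It was 0.20 on slide 1 and 0.92 on slide 2, and its unadjusted p was 0.0528 with slide as a block (limma). Gadd45b, a stress-induced inhibitor of cell death signalling, differed by -0.54 (SE 0.35), the adhesion molecule Selp by 0.26 and the hypoxia regulator Hif1a by 0.19, none at that threshold. Single mice moved these values: Gadd45b was at -0.24 without wild-type replicate 2 and at -0.85 without wild-type replicate 3 (unadjusted p = 0.0139, adjusted p = 0.752 in limma). Selp was at 0.087 without wild-type replicate 2, 0.40 without wild-type replicate 1 and 0.17 without knockout replicate 3. Hif1a was at 0.060 without wild-type replicate 1 and 0.12 without knockout replicate 4.

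**Figure D4:**
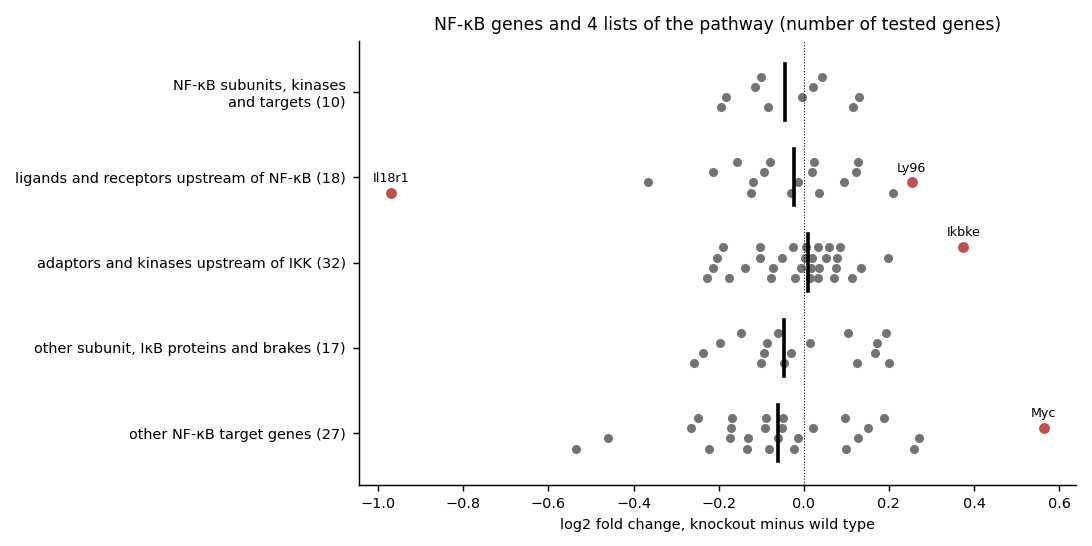
Difference in log2 level (knockout minus wild type) of the 10 genes and of the tested genes of the 4 lists, with the number tested beside each name, 1 point per gene and a black bar at the median. Red points are the 4 genes with an unadjusted p under 0.05 (limma), Il18r1, Ly96, Ikbke and Myc, and each group is spread on both sides of 0.

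Cell types that carry much of the pathway were followed through marker lists, of which 56 of 64 genes were tested, 0 passed at an adjusted p under 0.05 and 6 (10.71%) had an unadjusted p under 0.05 (limma), against 6.36% of all tested genes. The 9 tested Kupffer cell and macrophage markers, Clec4f among them, were all below 0 with a median of -0.17, and 0 of 9 had an unadjusted p under 0.05. Over all tested genes 56.1% lay above 0. The summed level of these markers, the log2 of the sum of their signals relative to the 75th percentile, ran from 7.63 to 8.09 in wild-type and from 7.27 to 8.03 in knockout liver. Knockout replicate 1 was the lowest of the 8 arrays for most of these markers, beside 13.5% of all tested genes. Clec4f read 4.52 in that mouse and 4.81, 5.12 and 4.88 in the other knockout mice, against 4.85 to 5.29 in wild-type mice. No value without that mouse is given here. The 4 tested neutrophil markers of 8 were also below 0, with a median of -0.42 and 0 at that p, and summed levels of 2.76 to 4.14 and 2.67 to 3.32. Of the 9 sinusoidal endothelial markers, 5 were above 0 and 4 below it with a median of 0.06, and the summed levels overlapped at 6.39 to 6.82 and 6.39 to 6.89. Lyve1 (-0.67) had an unadjusted p under 0.05, and Fcgr2b (0.39), which did not, lay on the other side of 0. Of the 8 hepatocyte markers, 4 were above 0 and 4 below it with a median of -0.03. Alb differed by -0.21 with an unadjusted p under 0.05, and Serpina1a (-0.19) and Cps1 (0.25) did not reach it. Their summed level, to which the brightest markers, Alb and Serpina1a, add most, did not overlap between the genotypes, at 12.34 to 12.51 in wild-type and 12.26 to 12.30 in knockout liver. Before scaling, both of these markers overlapped. Alb signals ran from 372200 to 427710 in wild-type and from 384930 to 402440 in knockout liver. Those of Serpina1a ran from 328500 to 362100 and from 328440 to 361940. The 75th percentile used for scaling was higher on every knockout array than on any wild-type array. Scaling therefore lowers the knockout level relative to wild type for the markers of every list. Before scaling, Clec4f signals ran from 5585 to 7594 in wild-type and from 5053 to 7636 in knockout liver. Of the 6 cholangiocyte markers, Krt19 (0.59) and Spp1 (0.69) reached that p and Cftr (-0.53) did not, with 4 above 0 and 2 below it, a median of 0.41 and summed levels of 1.75 to 2.25 and 2.03 to 3.03. Of the 7 stellate cell markers, Col3a1 (0.46) reached it and Reln (-0.25) did not, with 5 above 0 and 2 below it, a median of 0.06 and summed levels of 6.70 to 6.87 and 6.76 to 6.97. Most of that sum came from 1 bright marker. Of the 8 tested T and NK cell markers, Cd3e (-0.24) reached it and Klrb1c (0.42) did not, with 1 above 0 and 7 below it, a median of -0.13 and summed levels of 5.34 to 6.04 and 5.34 to 5.64. Here too 1 bright marker made up most of the sum. Of the 5 tested B cell markers none reached it, the median was -0.06 and the summed levels were 1.35 to 1.97 and 1.21 to 1.95, and their defining marker Pax5 was well above background on 0 arrays. The part of these shifts in the values of the NF-κB genes was not tested.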

How the data were processed

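Spot values are, per the file headers, fluorescence intensity from Agilent Feature Extraction 10.7.3.1. The processed signal deposited by the authors was already background-subtracted and not normalized between arrays. They also deposited a table of log2 values, which lay within 0.05 of normexp (offset 50) and quantile normalized scanner values for 99.5% of entries, with column medians of 6.39 to 6.40. The submitters' processing notes name limma. Here, outlier spots were dropped, log2 values of repeated spots averaged and each array's 75th percentile subtracted. No spot was saturated. Probes were named through RefSeq accessions (26056 of 55681 matched) and tested if well above background on at least 4 of 8 arrays. Both genotypes were fitted in limma 3.58.1 (lmFit, eBayes; R 4.3.3) without covariates, with Benjamini-Hochberg adjustment. The scanner columns hold median but no mean spot signals, so the normexp alternative was run on the medians. The code was tested on simulated data. The number of arrays limits the precision. Slides and positions were read from the names of the scanner output. The named genes are the 10 genes, Terf2ip and up to 4 genes of each pathway list with the smallest p, and at most 4 genes of a marker list, chosen by p or for being at background. Pathway genes that were not tested were named afterwards as examples, outside this rule. The members and lists were chosen with earlier results of these data known. The labels call the arrays replicates of a genotype, 1 mouse each.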

Additional observations from a re-analysis of the deposited data

How the results depend on the processing

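The count of NF-κB genes and of probes at an adjusted p under 0.05 was 0 under every alternative run, and that at an unadjusted p under 0.05 was 0 except without knockout replicate 3, where Relb made it 1 gene and 1 probe (0 to 1 over all mice left out). The median of the 10 genes lay between -0.11 and -0.01 with 1 mouse left out and was 0.0085 with the mean of each gene's probes. Differences below 0 for Rela and Nfkbia and above 0 for Ikbkb kept their sign under all 22 alternatives, each of which scaled the arrays to each other. Some of these could not change the difference of a gene with 1 probe. It was identical without the filter, with probes detected on all 8 arrays, with trended and robust variance and with slide as a block. The authors' table also nearly repeats normexp and quantile normalization. Chuk was at -0.039 with normexp and quantile normalization and in the authors' table, -0.014 with quantile normalization alone, -0.012 with cyclic loess, and -0.10 within slide 2. Nfkb2 was at 0.0038 with normexp and quantile normalization, 0.0039 in the authors' table, 0.00032 with array weights, 0.0067 with median scaling and 0.10 within slide 2. Within slide 2 the sign also turned for Icam1 (0.013), Ikbkg (-0.062), Relb (0.12 and, for its second probe, 0.092), Tnfaip3 (-0.12) and Nfkbil1 (0.0029). Tnfaip3 was at -0.082 with array weights, and Nfkb1 at 0.049 with the mean of its probes. The cause was not tested. With 1 mouse left out, the range was -0.052 to 0.18 for Chuk, -0.26 to 0.085 for Icam1, -0.14 to 0.079 for Nfkb2, -0.19 to 0.19 for Tnfaip3 and -0.25 to 0.073 for the second Relb probe, and, with no change of sign, -0.15 to -0.052 for Rela, -0.40 to -0.049 for Relb, -0.20 to -0.0088 for Nfkb1 (0.13 to 0.27 for its second probe), 0.056 to 0.16 for Ikbkb, 0.0076 to 0.22 for Ikbkg (0.026 to 0.22 for its second probe), -0.32 to -0.13 for Cyld, -0.27 to -0.11 for Nfkbil1 and 0.11 to 0.30 for Rnf11. Of the 94 tested pathway genes, 4 had an unadjusted p under 0.05, against 7 with quantile normalization, 2 without the filter on dim probes (where the dim pathway genes are tested too, so that the total is larger), and 1 to 4 with 1 mouse left out (1 without knockout replicate 4, and 2 without knockout replicate 3 or wild-type replicate 1 or 4). Over all tested genes, 2 passed at an adjusted p under 0.05, against 0 with normexp and quantile normalization, in the authors' table, with the replicate block and within slide 1, 1 with quantile normalization, median scaling, no filter, probes detected on all 8 arrays, slide as a block, within slide 2 and with any 1 mouse left out, and 3 with trended and robust variance or the mean of probes. At an unadjusted p under 0.05 the count of 894 was 524 within slide 2. Signal limited what could be read: the 13 NF-κB probes were well above background on all 8 arrays, but 20 of 114 pathway genes were not tested, 3 of them for want of a matched probe and the rest because they were dim.

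No pairing of the mice by replicate number was seen, which does not exclude one. Deviations of same-numbered mice from their group means correlated at r = 0.09, -0.18, -0.07 and 0.10 over tested genes, and 0 of 4 correlated best with their own number. With the replicate block, 0 of 10 NF-κB genes passed at either p and 3 of the 94 pathway genes had an unadjusted p under 0.05. Myc then had an unadjusted limma p of 0.0572.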
